A study of Mus musculus with 8 samples.

Results

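The cholesterol and fatty acid synthesis genes described here are 36 genes chosen by name and matched by symbol in a table of nascent RNA from mouse embryonic stem cells. All 36 were found among the 16940 genes of the table, each in 1 row. They fall into a sterol branch of 26 genes (18 enzymes, 5 genes of sterol sensing and 3 of sterol transport) and a fatty acid branch of 10 enzymes. The cells were of the E14 line and carried CTCF AID, that is, CTCF with an auxin-inducible degron that lets the protein be removed by the auxin IAA. CTCF binds DNA and holds the bases of many chromatin loops. All 4 groups shared this background and were grown without serum, with LIF, PD0325901 and CHIR99021. The line named overexpressed control was taken both untreated and 12 h into IAA treatment, and lines with overexpressed wild type CTCF or overexpressed mutated CTCF were measured after 12 h of IAA. The labels do not name the mutation, the promoter of the constructs or whether a line is 1 clone. No line without the degron was analysed here, so an effect of IAA itself and of CTCF removal cannot be told apart. RNA was labelled for 15 min with 400 µM 4-thiouridine (transient transcriptome sequencing, TT-seq), so the values follow RNA synthesis more than the stock of mRNA. In such bulk samples, fewer cells of a type and less RNA per cell cannot be told apart.

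Cholesterol is made from acetyl-CoA through mevalonate, isoprenoid diphosphates, squalene and lanosterol. When membrane sterol is low, the escort protein SCAP carries the SREBP factors (made from Srebf1 and Srebf2) from the endoplasmic reticulum to the Golgi, where they are cut and released to enter the nucleus. INSIG proteins hold SCAP back when sterol is plentiful, and Insig1 is itself an SREBP target. SREBP2 acts mainly on sterol genes and SREBP1 mainly on fatty acid genes, and both commonly act beside NF-Y and Sp1 at promoters.

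Promoter windows of 300 bases (250 before and 50 after a gene start, RefSeq, GRCm38.p6) were found for 28 of the 36 genes. None was found for Fdps, Fdft1, Sqle, Stard4, Npc1, Scd1, Scd2 and Fads1. In them 5 motifs were searched as letters on both strands. CCAAT, the NF-Y letters, were in 19 of the 29 windows of sterol genes (18 of 21 genes), against 37.41% of all 32851 windows. GGGCGG, the Sp1-type letters, were in 24 of the 29 (20 of 21 genes), against 35.66%. TCACNCCAC, the SREBP-type letters, were in 1, that of Hmgcs1, against 1.24% of all windows. CACGTG, an E-box, was in 7 of the 29 (6 of 21 genes), against 7.15% of all windows. AGGGGGC, letters of the CTCF core, was in 5 (4 of 21 genes), against 10.61%. The windows of Scap overlap and share both. Of the 7 fatty acid genes with a window, 4 held CCAAT and 4 GGGCGG. A match is not a site. The windows below are shown because Hmgcs1 held the SREBP-type letters and because Mvd, Hsd17b7, Fasn and Scap had among the widest changes. Those of Pmvk and Abca1, which also changed widely, are not shown. Sqle and Scd2 changed widely too but had no window. CCAAT was in a window of Pmvk, but not in its other or in that of Abca1. Each window shown runs 5′ to 3′ on the gene's strand and ends at the base before the RefSeq start. Capitals mark TCACNCCAC and CCAAT on either strand in the first 4 (CCAAT on the other strand reads ATTGG), and AGGGGGC in Scap. AGGGGGC was also in a window of each of Abca1, Cyp51, Lss and Me1, which are not shown. The choice to mark it in Scap was made with its values known.
Hmgcs1 (chr13:119690101-119690350, plus strand): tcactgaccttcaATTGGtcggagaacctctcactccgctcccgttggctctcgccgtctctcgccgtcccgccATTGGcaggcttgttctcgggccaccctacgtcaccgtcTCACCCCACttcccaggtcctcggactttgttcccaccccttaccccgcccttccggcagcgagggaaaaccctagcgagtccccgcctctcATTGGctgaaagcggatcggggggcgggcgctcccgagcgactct
Mvd (chr8:122443423-122443572, minus strand): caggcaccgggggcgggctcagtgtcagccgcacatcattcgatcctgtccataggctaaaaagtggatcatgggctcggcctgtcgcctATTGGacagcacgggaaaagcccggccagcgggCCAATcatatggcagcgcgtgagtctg
Hsd17b7 (chr1:169969206-169969385, minus strand): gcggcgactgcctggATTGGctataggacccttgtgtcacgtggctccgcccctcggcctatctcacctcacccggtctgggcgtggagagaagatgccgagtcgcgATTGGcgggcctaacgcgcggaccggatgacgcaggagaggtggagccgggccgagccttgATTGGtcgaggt
Fasn (chr11:120824548-120824697, minus strand): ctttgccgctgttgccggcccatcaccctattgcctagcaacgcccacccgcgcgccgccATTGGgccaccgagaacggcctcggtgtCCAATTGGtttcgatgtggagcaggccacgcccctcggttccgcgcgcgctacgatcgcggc
Scap (chr9:110333038-110333287, plus strand): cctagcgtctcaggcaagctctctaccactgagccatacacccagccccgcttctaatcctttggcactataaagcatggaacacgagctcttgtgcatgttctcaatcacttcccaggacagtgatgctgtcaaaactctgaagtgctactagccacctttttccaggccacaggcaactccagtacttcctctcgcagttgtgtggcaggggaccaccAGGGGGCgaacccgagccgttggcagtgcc

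Each group had 2 replicates, and nothing says that they came from separate cultures, so p-values measure the spread between these libraries, which may be technical. Libraries held 15671114 to 21561141 reads, and 1 read was worth 0.836 to 1.19 normalized reads. The 2 libraries of the control with IAA had the fewest reads (15671114 and 17187354). They also had the highest worth of 1 read (1.19 and 1.10) and the most genes at 0 (8 and 10). The part of this in the results was not tested. Across genes, r of log2 values was 0.995 to 0.996 within groups and 0.983 to 0.990 between them. Of the genes that mark other cells, 0 of 5 feeder fibroblast markers were listed. The summed level of the 7 naive stem cell markers was 47624 to 48480.3 normalized reads in the untreated control, 50121 to 51543 in the control with IAA, 54598 to 58182 with wild-type CTCF and 54131 to 56754 with mutated CTCF. Among them Tfcp2l1 averaged 13438 untreated and 18581 in the control with IAA, while Esrrb (15464 and 13987) and Zfp42 (10020.5 and 9012) were lower in the latter. Markers of other cells moved with the groups too. Primitive endoderm markers (4 of 5 listed) summed to 195 to 228 untreated, 269 to 331 in the control with IAA, 233 to 262 with wild-type and 256 to 259 with mutated CTCF. Mesoderm markers (2 of 4, mostly Eomes) summed to 89.2 to 93.1 with wild-type CTCF and 42.8 to 69.0 in the other groups. Trophoblast markers (2 of 4, nearly all Tfap2c) summed to 804 to 890.1 with wild-type CTCF and 547 to 625 in the others. The neural marker Pax6 (1 of 4 listed) was at 3.13 to 19.2. The targeted gene itself was not analysed here.

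With 12 h of IAA in the control line, most sterol genes were transcribed less. Of the 26 sterol genes, 19 fell and 1 rose, where 18.4% of all 15818 genes tested fell and 19.4% rose (limma, adjusted p under 0.05, here and below). The median log2 fold change was -0.36 over the sterol genes, with a range of -0.85 to 0.40, and -0.0017 over all genes tested. Of the 10 fatty acid genes, 3 fell and 0 rose, with a median of -0.055. This median was -0.089 without untreated control replicate 1, -0.030 without untreated control replicate 2 and -0.11 with equal library totals. Without untreated control replicate 2, 1786 genes of the table fell in place of 2905. The sum of the primitive endoderm markers was highest in the control with IAA (269 to 331 normalized reads). Of the 4, Gata4 (164) and Pdgfra (67.8) were highest there, Gata6 was highest untreated (77.4, and 51.1 with IAA) and Dab2 with wild-type CTCF (19.8, and 17.0 in the control with IAA). Their part in these changes was not tested. All 36 genes passed the minimum mean of 10 normalized reads.

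**Figure D1:**
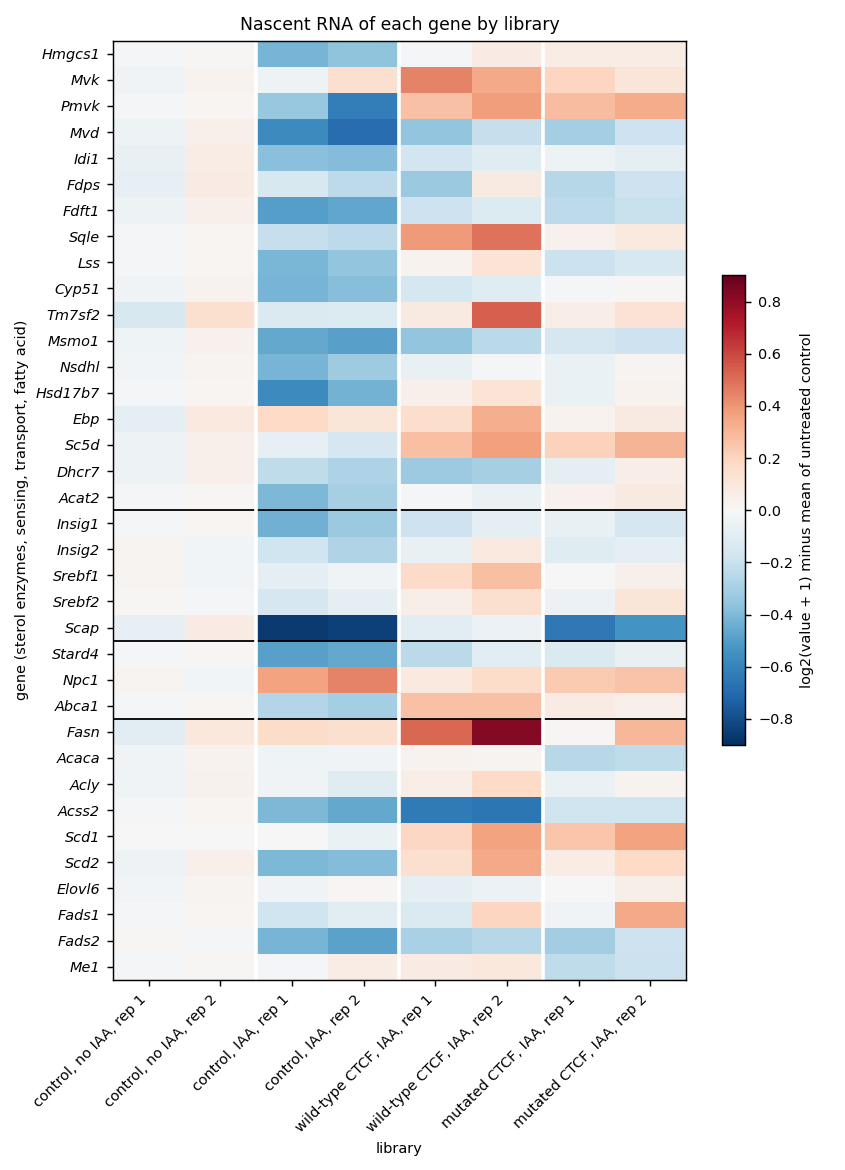
Difference of each gene (rows) in each of the 8 libraries (columns) from the mean of the untreated control, as log2(value + 1), with black lines between sterol enzymes, sensing, transport and fatty acid genes. The columns of the control with IAA are blue for most sterol genes, down to -0.85 on average for Scap, while Npc1 is red there.

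Of the 18 sterol enzymes 13 fell and 0 rose. Hmgcs1 makes HMG-CoA from acetyl-CoA. It stood at 6665 and 6752 normalized reads in the untreated control, 5008 and 5212 in the control with IAA, 6676 and 7055 with wild-type CTCF and 7025 and 7037 with mutated CTCF. Its control libraries with IAA lay below all 6 others (log2 fold change -0.39, SE 0.035, adjusted p = 2.7e-12). Pmvk and Mvd turn phosphomevalonate into isopentenyl diphosphate. Pmvk stood at 242 and 248 normalized reads in the untreated control, 193 and 158 in the control with IAA, 295 and 319 with wild-type CTCF and 297 and 309 with mutated CTCF. Mvd stood at 160.5 and 171 normalized reads in the untreated control, 111 and 102 in the control with IAA, 129 and 143 with wild-type CTCF and 134 and 145 with mutated CTCF. Both fell with IAA, Pmvk with a log2 fold change -0.48, SE 0.10, adjusted p = 2.1e-04 and Mvd with a log2 fold change -0.63, SE 0.13, adjusted p = 1.4e-04, the lowest among the enzymes. Mvk, the kinase before Pmvk, did not pass (log2 fold change 0.049, SE 0.12, adjusted p = 0.78). Idi1, which isomerises isopentenyl diphosphate, fell (log2 fold change -0.38, SE 0.051, adjusted p = 7.0e-08). Fdps, which makes farnesyl diphosphate, had only 54.2 to 72.7 normalized reads in the 8 libraries and did not pass (log2 fold change -0.19, SE 0.19, adjusted p = 0.46).

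Squalene and lanosterol steps followed the same direction. Fdft1, squalene synthase, stood at 7316 and 7778 normalized reads in the untreated control, 5351 and 5449.8 in the control with IAA, 6642 and 6927 with wild-type CTCF and 6418 and 6570.2 with mutated CTCF. It fell with IAA without overlap (log2 fold change -0.48, SE 0.035, adjusted p = 1.1e-14), and both lines with added CTCF lay between the 2 control groups. Sqle, which oxidises squalene and is a slow step of the pathway, stood at 2973 and 3054 normalized reads in the untreated control, 2616 and 2565 in the control with IAA, 3931 and 4220.4 with wild-type CTCF and 3094 and 3207 with mutated CTCF. It fell as well (log2 fold change -0.22, SE 0.041, adjusted p = 4.3e-05), and the wild-type CTCF libraries were its highest. Lss, which closes the ring to lanosterol, fell with a log2 fold change -0.38, SE 0.051, adjusted p = 5.8e-08.

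Among the enzymes that turn lanosterol into cholesterol, some fell and others did not pass. Cyp51 and Msmo1, which remove methyl groups from lanosterol, fell (-0.40 and -0.47 on the log2 scale). So did Nsdhl, which acts in the same demethylation (log2 fold change -0.37, SE 0.049, adjusted p = 6.1e-08). Hsd17b7, the ketone reductase of that step, stood at 879 and 901 normalized reads in the untreated control, 597 and 662 in the control with IAA, 918 and 968 with wild-type CTCF and 854 and 911 with mutated CTCF. Its control libraries with IAA were the lowest of the 8 (log2 fold change -0.50, SE 0.063, adjusted p = 2.2e-08). Dhcr7, which makes cholesterol from its last precursor, fell as well (log2 fold change -0.25, SE 0.066, adjusted p = 0.0022). Not past the threshold were the reductase gene Tm7sf2 (-0.13, adjusted p = 0.59), the isomerase gene Ebp (0.14, adjusted p = 0.37) and the desaturase gene Sc5d (-0.11, adjusted p = 0.16). Acat2, a cytosolic acetoacetyl-CoA thiolase at the entry of the pathway, fell with a log2 fold change -0.35, SE 0.058, adjusted p = 5.3e-06.

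Scap had the widest fold change with IAA of all 36 genes. It stood at 522 and 578 normalized reads in the untreated control, 303 and 307 in the control with IAA, 511 and 531 with wild-type CTCF and 351 and 379 with mutated CTCF. Its level with IAA was 304.7 ± 3.05 normalized reads (SD, n = 2) against 550.0 ± 40.2 without, a log2 fold change -0.85, SE 0.080, adjusted p = 1.8e-11. The libraries with wild-type CTCF overlapped the untreated ones and those with mutated CTCF lay between the 2 control groups. Insig1, the retention protein that is itself an SREBP target, stood at 2979 and 3053 normalized reads in the untreated control, 2231 and 2392 in the control with IAA, 2647 and 2846 with wild-type CTCF and 2882 and 2719.6 with mutated CTCF, and fell with IAA (log2 fold change -0.38, SE 0.045, adjusted p = 3.8e-09). Insig2 (-0.22, adjusted p = 0.036) and Srebf2 (-0.12, adjusted p = 0.025) fell by less, and Srebf1 did not pass (-0.060, adjusted p = 0.44). The call of Dhcr7 was lost without untreated control replicate 2 (-0.21, adjusted p = 0.071). The call of Insig2 was lost without untreated control replicate 1 (-0.20, adjusted p = 0.19), untreated control replicate 2 (-0.25, adjusted p = 0.099), control with IAA replicate 1 (-0.27, adjusted p = 0.051) or control with IAA replicate 2 (-0.18, adjusted p = 0.20). The call of Srebf2 was lost without untreated control replicate 1 (-0.11, adjusted p = 0.13), untreated control replicate 2 (-0.13, adjusted p = 0.084) or control with IAA replicate 1 (-0.084, adjusted p = 0.26). Insig2 and Srebf2 also did not pass without the mean-variance trend.

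Of the 3 transport genes, 2 fell and 1 rose. Stard4, a carrier of cholesterol between membranes, fell from 2125 ± 19.9 to 1530.2 ± 22.9 normalized reads, with a log2 fold change -0.47, SE 0.049, adjusted p = 1.8e-10. Abca1, which exports cholesterol and is a target of the sterol-activated LXR receptors, stood at 3274 and 3339 normalized reads in the untreated control, 2754 and 2677 in the control with IAA, 3969 and 3975 with wild-type CTCF and 3473 and 3408 with mutated CTCF. It fell with IAA (log2 fold change -0.28, SE 0.039, adjusted p = 1.3e-07) and was highest with wild-type CTCF. Npc1, which releases cholesterol from lysosomes, was the exception. It stood at 1076 and 1041 normalized reads in the untreated control, 1361 and 1443 in the control with IAA, 1123 and 1184 with wild-type CTCF and 1243 and 1263 with mutated CTCF, so that the control libraries with IAA were above all others (log2 fold change 0.40, SE 0.054, adjusted p = 6.7e-08).

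The control with IAA was the extreme group for most sterol genes. For 20 of the 26, both of its libraries lay below the other 6 libraries, which was so for 13.3% of all genes tested. For Npc1 alone both lay above the other 6, as for 7.59% of all genes tested. The same low position held for 2 of the 10 fatty acid genes, Scd2 and Fads2. The median of the sterol genes, relative to the untreated control, was -0.36 and -0.31 on the log2 scale in the control libraries with IAA. It was -0.013 and 0.085 with wild-type CTCF and -0.051 and 0.038 with mutated CTCF. Over all genes tested these medians were -0.015 and 0.015, 0.031 and 0.082, and 0.033 and 0.074.

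The 3 fatty acid enzymes that fell were Scd2, Fads2 and Acss2. Scd2, a stearoyl-CoA desaturase, stood at 6541 and 6949 normalized reads in the untreated control, 5083 and 5153 in the control with IAA, 7443 and 8555 with wild-type CTCF and 7057 and 7645 with mutated CTCF, and fell with IAA (log2 fold change -0.40, SE 0.043, adjusted p = 5.3e-10). Fads2, the delta-6 desaturase, stood at 2300.3 and 2272 normalized reads in the untreated control, 1708 and 1639 in the control with IAA, 1870.0 and 1913 with wild-type CTCF and 1841 and 2011 with mutated CTCF. It fell too, and all its CTCF libraries lay between the 2 control groups (log2 fold change -0.45, SE 0.048, adjusted p = 3.3e-10). Acss2, which makes acetyl-CoA from acetate, stood at 1769 and 1815 normalized reads in the untreated control, 1351 and 1302 in the control with IAA, 1155 and 1139 with wild-type CTCF and 1579 and 1582 with mutated CTCF. It fell with IAA (log2 fold change -0.43, SE 0.050, adjusted p = 2.2e-09) and was lower still with wild-type CTCF. The remaining 7 did not pass. These were Fasn, the fatty acid synthase (0.15, adjusted p = 0.065), Acaca, acetyl-CoA carboxylase (-0.038, adjusted p = 0.36), and Acly, which makes cytosolic acetyl-CoA from citrate (-0.072, adjusted p = 0.17). Also among them were the desaturases Scd1 (-0.031, adjusted p = 0.65) and Fads1 (-0.14, adjusted p = 0.20), the elongase Elovl6 (-0.011, adjusted p = 0.80) and the NADPH source Me1 (0.025, adjusted p = 0.66). Elovl6 had the highest level of the branch per kilobase of exon and the smallest difference. With libraries rescaled to the same total, 7 of the 10 fatty acid genes fell instead of 3, and of all genes in the table, 2569 rose and 4098 fell, in place of 3062 and 2905.

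**Figure D2:**
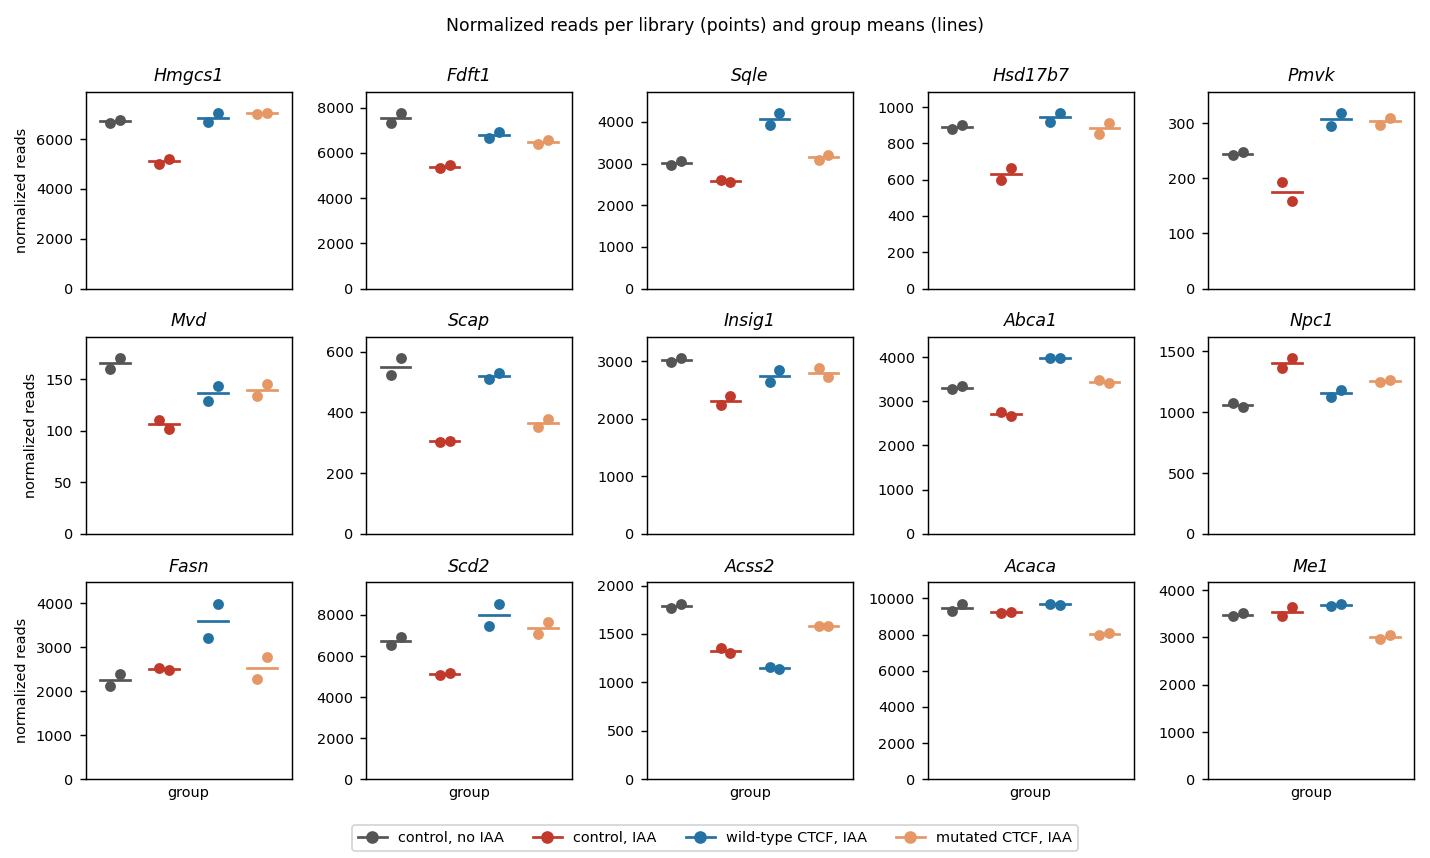
Normalized reads (vertical axes from 0) of 15 genes in each library (points) with the mean of each group (lines), for the untreated control, the control with IAA, wild-type CTCF with IAA and mutated CTCF with IAA. Hmgcs1, Fdft1 and Scap dip in the control with IAA, Npc1 peaks there, and Acss2 is lowest with wild-type CTCF at 1155 and 1139.

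Adding wild-type CTCF under IAA went with higher transcription of most of these genes than in the control with IAA. Of the sterol genes 22 rose and 1 fell, where 21.5% of all genes tested rose and 10.01% fell. Of the fatty acid genes 5 rose and 1 fell. The median log2 fold change was 0.32 over the sterol genes and 0.17 over the fatty acid genes, against 0.057 over all genes tested. After median-of-ratios rescaling, which sets the median over all genes near 0, the sterol median was 0.26 and the fatty acid median 0.12, 18 sterol genes rose and 1 fell, and 2548 genes of the whole table rose and 2513 fell, in place of 3407 and 1584. The number of genes of the table that rose was 2215 without replicate 1 of the control with IAA and 1957 without wild-type CTCF replicate 2, and the number that fell was 932 without replicate 2 of the control with IAA. The fatty acid median was 0.10 without wild-type CTCF replicate 2. This comparison and the next share the control with IAA with the first, so their values are not independent of it. The sums of the listed mesoderm and trophoblast markers were highest with wild-type CTCF (89.2 to 93.1 and 804 to 890.1 normalized reads). The first was mostly Eomes (mean 81.4 there) and the second nearly all Tfap2c (837), so each sum in effect follows 1 gene. Their part in these changes was not tested.

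The widest rises among enzymes were at Pmvk (log2 fold change 0.81, SE 0.10, adjusted p = 6.4e-08), Sqle (log2 fold change 0.65, SE 0.041, adjusted p = 6.1e-16) and Hsd17b7 (log2 fold change 0.58, SE 0.063, adjusted p = 1.5e-09). Sqle went from 2590.3 ± 36 to 4076 ± 204 normalized reads (SD, n = 2). Lss, Sc5d and Hmgcs1 rose by 0.46, 0.43 and 0.43. Tm7sf2, Mvd and Mvk rose by 0.44, 0.35 and 0.34. Fdft1, Nsdhl, Acat2, Cyp51, Idi1 and Msmo1 rose by 0.17 to 0.33. Dhcr7 (-0.062, adjusted p = 0.51), Ebp (0.098, adjusted p = 0.57) and Fdps (0.063, adjusted p = 0.83) did not pass. All 5 sensing genes rose. Scap rose most (log2 fold change 0.77, SE 0.080, adjusted p = 5.5e-10), and Srebf1, Insig1, Insig2 and Srebf2 rose by 0.22 to 0.28. Abca1 rose (log2 fold change 0.55, SE 0.039, adjusted p = 1.5e-14), as did Stard4 (0.31), while Npc1 fell (log2 fold change -0.28, SE 0.054, adjusted p = 8.2e-05).

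In the fatty acid branch, Scd2 (log2 fold change 0.64, SE 0.043, adjusted p = 2.8e-15) and Fasn (log2 fold change 0.52, SE 0.066, adjusted p = 7.3e-08) rose most. Fasn stood at 2113 and 2404 normalized reads in the untreated control, 2522 and 2491 in the control with IAA, 3219 and 3997 with wild-type CTCF and 2274 and 2771 with mutated CTCF. Its wild-type libraries were the highest of the 8 but lay well apart from each other. Scd1 (0.30), Acly (0.19) and Fads2 (0.18) also rose, and Acss2 fell (log2 fold change -0.21, SE 0.050, adjusted p = 0.0011). Acaca (0.067, adjusted p = 0.097), Fads1 (0.17, adjusted p = 0.13), Me1 (0.057, adjusted p = 0.28) and Elovl6 (-0.054, adjusted p = 0.13) did not pass.

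Some of these calls did not hold without 1 library. The call of Mvk was lost without control with IAA replicate 1 (0.25, adjusted p = 0.21) or wild-type CTCF replicate 1 (0.29, adjusted p = 0.14). The call of Mvd was lost without control with IAA replicate 1 (0.41, adjusted p = 0.056), control with IAA replicate 2 (0.30, adjusted p = 0.17) or wild-type CTCF replicate 2 (0.28, adjusted p = 0.23). The call of Tm7sf2 was lost without control with IAA replicate 1 (0.43, adjusted p = 0.13), control with IAA replicate 2 (0.44, adjusted p = 0.11) or wild-type CTCF replicate 2 (0.21, adjusted p = 0.52). The call of Insig2 was lost without control with IAA replicate 1 (0.28, adjusted p = 0.052), control with IAA replicate 2 (0.19, adjusted p = 0.19) or wild-type CTCF replicate 2 (0.16, adjusted p = 0.31). The call of Fads2 was lost without control with IAA replicate 2 (0.15, adjusted p = 0.071). The value of Tm7sf2, at 76.9 to 124 normalized reads, became 0.67 without wild-type CTCF replicate 1. Mvk, Mvd, Tm7sf2 and Insig2 were also not called after median-of-ratios rescaling or by edgeR on recovered reads, and Mvd, Tm7sf2 and Insig2 not with only the 2 groups compared. Without the mean-variance trend Fasn (adjusted p = 0.068), Acly, Scd1, Fads2, Tm7sf2, Msmo1, Insig1, Insig2 and Srebf2 were not called.

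Mutated CTCF under IAA was also set against the control with IAA. Of the sterol genes 19 rose and 1 fell, where 22.0% of all genes tested rose and 12.4% fell. Of the fatty acid genes 5 rose and 2 fell. The medians were 0.28 for sterol genes, 0.13 for fatty acid genes and 0.055 for all genes tested. After median-of-ratios rescaling the sterol median was 0.23 and the fatty acid median 0.078, with 19 sterol genes higher and 1 lower, and 2706 genes of the whole table rose and 2682 fell, in place of 3473 and 1960. The fatty acid median was 0.20 without mutated CTCF replicate 1 and 0.057 without mutated CTCF replicate 2.

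Pmvk (log2 fold change 0.79, SE 0.10, adjusted p = 7.4e-08), Hsd17b7 (log2 fold change 0.49, SE 0.063, adjusted p = 6.9e-08) and Hmgcs1 (log2 fold change 0.46, SE 0.035, adjusted p = 7.1e-14) rose most among enzymes. Acat2, Cyp51, Mvd, Sc5d, Nsdhl, Idi1 and Msmo1 followed at 0.30 to 0.41. Sqle, Fdft1, Dhcr7 and Lss rose by 0.22 to 0.28. Mvk (0.10, adjusted p = 0.55), Tm7sf2 (0.22, adjusted p = 0.32), Ebp (-0.091, adjusted p = 0.60) and Fdps (-0.029, adjusted p = 0.93) did not pass. Among sensing genes, Insig1 (0.28, adjusted p = 4.8e-06), Scap (0.26, adjusted p = 0.010) and Srebf2 (0.14, adjusted p = 0.0068) rose, and Insig2 (0.13, adjusted p = 0.27) and Srebf1 (0.084, adjusted p = 0.27) did not pass. Stard4 and Abca1 rose by 0.38 and 0.34, and Npc1 fell (-0.16, adjusted p = 0.017). Of the fatty acid genes, Scd2 rose most (log2 fold change 0.52, SE 0.043, adjusted p = 8.2e-13), with Scd1, Fads1, Acss2 and Fads2 at 0.20 to 0.33. Me1 (log2 fold change -0.24, SE 0.039, adjusted p = 7.5e-06) and Acaca (log2 fold change -0.20, SE 0.031, adjusted p = 2.9e-06) fell. Fasn (0.0021, adjusted p = 0.99), Acly (0.057, adjusted p = 0.29) and Elovl6 (0.034, adjusted p = 0.37) did not pass.

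Some calls of this comparison also did not hold without 1 library. The call of Mvd was lost without control with IAA replicate 2 (0.33, adjusted p = 0.11) or mutated CTCF replicate 2 (0.33, adjusted p = 0.14). The call of Dhcr7 was lost without mutated CTCF replicate 2 (0.17, adjusted p = 0.12). The call of Srebf2 was lost without control with IAA replicate 1 (0.11, adjusted p = 0.14) or mutated CTCF replicate 2 (0.064, adjusted p = 0.37). The call of Scap was lost without control with IAA replicate 1 (0.25, adjusted p = 0.059) or mutated CTCF replicate 2 (0.20, adjusted p = 0.12). The call of Npc1 was lost without control with IAA replicate 2 (-0.12, adjusted p = 0.19) or mutated CTCF replicate 1 (-0.15, adjusted p = 0.089). The call of Fads1 was lost without control with IAA replicate 1 (0.25, adjusted p = 0.089) or mutated CTCF replicate 2 (0.11, adjusted p = 0.41). The call of Fads2 was lost without mutated CTCF replicate 2 (0.14, adjusted p = 0.072). Without mutated CTCF replicate 1, Fads1 became 0.48 and Srebf2 0.22. Without the mean-variance trend Dhcr7, Srebf2, Scap, Npc1, Fads1 and Fads2 were not called.

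Mutated and wild-type CTCF were then compared directly, both with IAA. Its fold changes use no control library, but the estimate of spread, and so the SE and calls, rests on all 8 libraries. With only the 2 groups compared, 4895 genes of the table were called in place of 5489. Of the 26 sterol genes, 3 were higher and 5 lower with mutated CTCF, where 16.3% of all genes tested were higher and 18.4% lower, so these shares were near the background. Of the 10 fatty acid genes, 2 were higher and 5 lower. The medians were -0.064, -0.047 and -0.0087 for sterol, fatty acid and all genes tested. Both branch medians changed sign without some single libraries. The sterol median was 0.026 and the fatty acid median 0.011 without wild-type CTCF replicate 2, and they were -0.10 and -0.12 without wild-type CTCF replicate 1. They were -0.015 and 0.012 without mutated CTCF replicate 1, and -0.096 and -0.12 without mutated CTCF replicate 2.

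Scap and Fasn had the widest differences downward. Scap was at 521 ± 14.2 normalized reads with wild-type and 365 ± 19.5 with mutated CTCF (SD, n = 2; log2 fold change -0.51, SE 0.080, adjusted p = 2.5e-06). Fasn was at 3608 ± 550 and 2522 ± 352 (log2 fold change -0.51, SE 0.066, adjusted p = 5.6e-08), without overlap but with a wide spread, and was not called without the mean-variance trend (adjusted p = 0.059). Sqle (log2 fold change -0.37, SE 0.041, adjusted p = 2.1e-09), Lss (log2 fold change -0.24, SE 0.051, adjusted p = 1.8e-04), Abca1 (log2 fold change -0.21, SE 0.039, adjusted p = 4.8e-05) and Srebf1 (log2 fold change -0.20, SE 0.057, adjusted p = 0.0066) were also lower with mutated CTCF.

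Acss2 had the widest difference upward, 1147 ± 11 normalized reads with wild-type and 1580.2 ± 2.15 with mutated CTCF (SD, n = 2; log2 fold change 0.46, SE 0.050, adjusted p = 8.6e-10). Dhcr7 (log2 fold change 0.30, SE 0.066, adjusted p = 4.1e-04), Msmo1 (0.13, adjusted p = 0.0060), Cyp51 (0.13, adjusted p = 0.0034) and Elovl6 (0.088, adjusted p = 0.011) were higher too. Acaca stood at 9292 and 9690.2 normalized reads in the untreated control, 9218 and 9265 in the control with IAA, 9719 and 9645 with wild-type CTCF and 7996 and 8116 with mutated CTCF, with the mutated CTCF libraries below the other 6 (log2 fold change -0.27, SE 0.031, adjusted p = 7.7e-09). Me1, a malic enzyme that yields NADPH for lipid synthesis, stood at 3454 and 3513 normalized reads in the untreated control, 3449.6 and 3642 in the control with IAA, 3658 and 3718 with wild-type CTCF and 2974 and 3042 with mutated CTCF, with the same position of the mutated CTCF libraries (log2 fold change -0.29, SE 0.039, adjusted p = 1.3e-07). Acly (-0.13, adjusted p = 0.010) and Scd2 (-0.12, adjusted p = 0.027, groups overlapping) passed narrowly. The call of Cyp51 was lost without wild-type CTCF replicate 1 (0.11, adjusted p = 0.053). The call of Msmo1 was lost without wild-type CTCF replicate 1 (0.076, adjusted p = 0.20) or mutated CTCF replicate 1 (0.11, adjusted p = 0.074). The call of Srebf1 was lost without wild-type CTCF replicate 2 (-0.15, adjusted p = 0.11) or mutated CTCF replicate 1 (-0.18, adjusted p = 0.057). The call of Acly was lost without wild-type CTCF replicate 2 (-0.071, adjusted p = 0.26) or mutated CTCF replicate 1 (-0.083, adjusted p = 0.23). The call of Scd2 was lost without wild-type CTCF replicate 2 (-0.019, adjusted p = 0.79) or mutated CTCF replicate 1 (-0.062, adjusted p = 0.40). The call of Elovl6 was lost without wild-type CTCF replicate 1 (0.073, adjusted p = 0.11) or mutated CTCF replicate 2 (0.061, adjusted p = 0.24). Without wild-type CTCF replicate 1, Scd2 became -0.22, and it was not called with only the 2 groups compared. Without the mean-variance trend Cyp51, Msmo1, Srebf1, Acly, Scd2 and Elovl6 were not called either. The other 21 genes did not pass, among them Hmgcs1 (log2 fold change 0.035, SE 0.035, adjusted p = 0.46), Insig1 (log2 fold change 0.028, SE 0.045, adjusted p = 0.66) and Pmvk (log2 fold change -0.016, SE 0.10, adjusted p = 0.92).

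**Figure D3:**
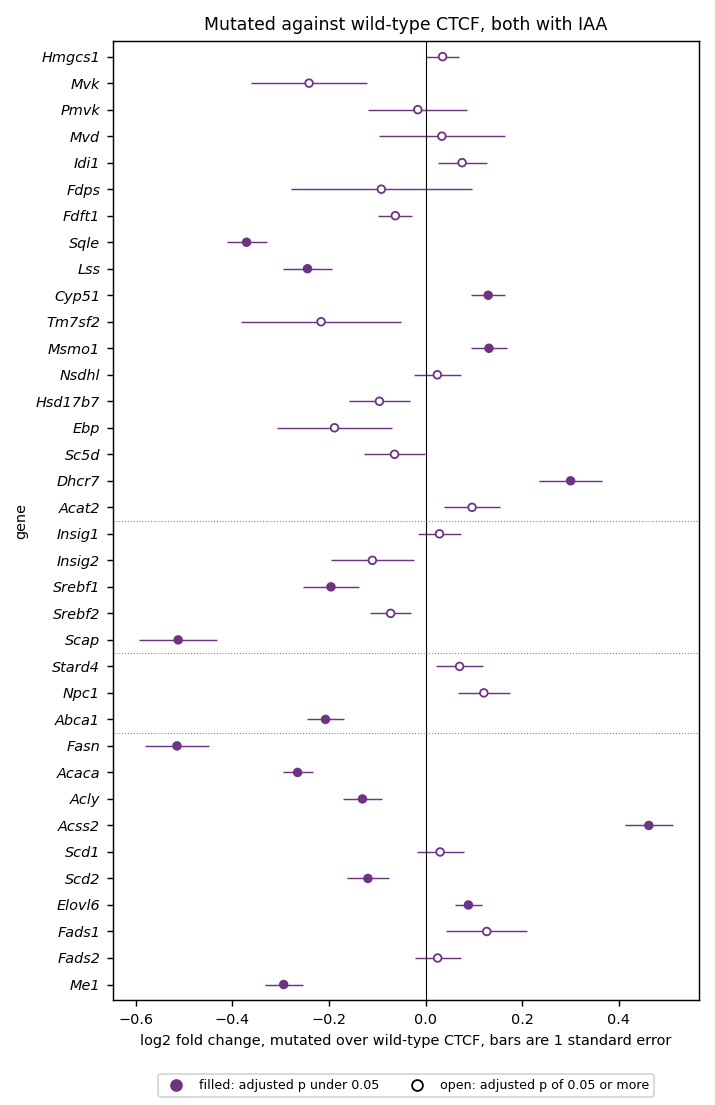
Log2 fold change of each gene (rows; bars are 1 standard error) in mutated over wild-type CTCF, both with IAA, with filled points past an adjusted p of 0.05. Most sterol enzymes lie near 0, Scap and Fasn lie lowest at -0.51, and Acss2 lies highest at 0.46.

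Both CTCF lines with IAA were also compared with the untreated control. With wild-type CTCF, 6 sterol genes were higher and 7 lower, where 27.6% of all genes tested were higher and 15.6% lower, and 4 fatty acid genes were higher and 2 lower. The medians were 0.022 for sterol genes and 0.056 for fatty acid genes, where that of all genes tested was 0.053. The sterol median was 0.085 without wild-type CTCF replicate 1 and -0.013 without wild-type CTCF replicate 2, and the fatty acid median 0.14 without wild-type CTCF replicate 1. Without untreated control replicate 2, 1462 genes of the table were lower. The sterol median was -0.032 and the fatty acid median 0.0017 after median-of-ratios rescaling, when 3651 genes of the whole table were higher and 3396 lower, in place of 4367 and 2461. With libraries rescaled to the same total, 6 sterol genes were higher and 9 lower, 3 fatty acid genes higher and 3 lower, and 3222 genes of the whole table higher and 3853 lower. Sqle (log2 fold change 0.43, SE 0.041, adjusted p = 2.8e-11) and Fasn (log2 fold change 0.67, SE 0.066, adjusted p = 7.3e-11) were above the untreated level. Mvk (0.39, adjusted p = 0.0070), Pmvk (0.32, adjusted p = 0.010), Sc5d (0.32, adjusted p = 6.8e-05), Abca1 (0.26, adjusted p = 5.0e-07), Srebf1 (0.22, adjusted p = 0.0018), Scd1 (0.27, adjusted p = 1.5e-05) and Scd2 (0.24, adjusted p = 1.2e-05) were too. Acly was called (0.12, adjusted p = 0.018), but not after either rescaling or by edgeR. Acss2 was furthest below (log2 fold change -0.64, SE 0.050, adjusted p = 9.4e-14), followed by Dhcr7 (-0.31, adjusted p = 1.6e-04), Msmo1 (-0.30, adjusted p = 2.1e-08) and Fads2 (-0.27, adjusted p = 1.0e-05). Stard4, Fdft1, Idi1, Insig1 and Cyp51 were lower by less, at -0.17 to -0.13. Scap did not pass (log2 fold change -0.077, SE 0.080, adjusted p = 0.46). The call of Mvk was lost without untreated control replicate 1 (0.36, adjusted p = 0.068) or wild-type CTCF replicate 1 (0.34, adjusted p = 0.061). The call of Pmvk was lost without untreated control replicate 1 (0.30, adjusted p = 0.086), untreated control replicate 2 (0.34, adjusted p = 0.052) or wild-type CTCF replicate 2 (0.27, adjusted p = 0.087). The call of Idi1 was lost without untreated control replicate 2 (-0.075, adjusted p = 0.36) or wild-type CTCF replicate 1 (-0.11, adjusted p = 0.15). The call of Insig1 was lost without untreated control replicate 2 (-0.12, adjusted p = 0.11) or wild-type CTCF replicate 1 (-0.084, adjusted p = 0.20). The call of Stard4 was lost without untreated control replicate 2 (-0.16, adjusted p = 0.052) or wild-type CTCF replicate 1 (-0.093, adjusted p = 0.20). The call of Acly was lost without untreated control replicate 1 (0.079, adjusted p = 0.23) or wild-type CTCF replicate 2 (0.057, adjusted p = 0.36). Without wild-type CTCF replicate 1, Acly became 0.18, and without replicate 2, Scd2 became 0.14. Without the mean-variance trend 8 calls were lost, namely Pmvk, Idi1, Fdft1, Cyp51, Insig1, Stard4, Acly and Scd2.

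With mutated CTCF, 3 sterol genes were higher and 4 lower than in the untreated control, where 24.0% of all genes tested were higher and 13.7% lower, and 2 fatty acid genes were higher and 4 lower. The medians were -0.0083 for sterol genes, 0.0044 for fatty acid genes and 0.052 for all genes tested. Both of these branch medians moved across 0 without some single libraries. They were -0.036 and -0.026 without untreated control replicate 1 and 0.012 and 0.035 without untreated control replicate 2. They were 0.038 and 0.042 without mutated CTCF replicate 1 and -0.051 and -0.047 without mutated CTCF replicate 2. Without untreated control replicate 2, 1411 genes of the table were lower in place of 2174. Scap was furthest below (log2 fold change -0.59, SE 0.080, adjusted p = 1.2e-07), with no overlap between 522 and 578 normalized reads untreated and 351 and 379 with mutated CTCF. Fdft1 (-0.22, adjusted p = 3.5e-06), Msmo1 (-0.17, adjusted p = 3.8e-04), Lss (-0.17, adjusted p = 0.0076), Fads2 (-0.25, adjusted p = 5.0e-05), Acaca (-0.24, adjusted p = 6.8e-08), Me1 (-0.21, adjusted p = 3.4e-05) and Acss2 (-0.18, adjusted p = 0.0033) were lower as well. Pmvk (0.31, adjusted p = 0.016), Sc5d (0.26, adjusted p = 0.0012), Npc1 (0.24, adjusted p = 3.3e-04), Scd1 (0.30, adjusted p = 3.1e-06) and Scd2 (0.12, adjusted p = 0.020) were higher. Hmgcs1 did not pass against the untreated control with either form (log2 fold change 0.033, SE 0.035, adjusted p = 0.47 for the wild-type form and log2 fold change 0.068, SE 0.035, adjusted p = 0.12 for the mutated one). The call of Pmvk was lost without untreated control replicate 1 (0.29, adjusted p = 0.12), untreated control replicate 2 (0.33, adjusted p = 0.070) or mutated CTCF replicate 2 (0.28, adjusted p = 0.095). The call of Lss was lost without untreated control replicate 2 (-0.15, adjusted p = 0.070) or mutated CTCF replicate 1 (-0.14, adjusted p = 0.081). The call of Sc5d was lost without untreated control replicate 1 (0.21, adjusted p = 0.053). The call of Scd2 was lost without untreated control replicate 1 (0.080, adjusted p = 0.30) or mutated CTCF replicate 2 (0.066, adjusted p = 0.36). Rescaling to the same total ended the calls of Pmvk and Scd2 and raised the number of sterol genes called from 7 to 11. Then 2 sterol genes were higher and 9 lower, 1 fatty acid gene was higher and 6 lower, and 2593 genes of the whole table were higher and 3421 lower. Median-of-ratios rescaling ended that of Scd2, moved the medians to -0.057 and -0.045 and gave 3138 genes of the whole table higher and 2888 lower, in place of 3801 and 2174. Leaving out the mean-variance trend ended those of Pmvk, Lss, Msmo1 and Scd2.

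**Figure D4:**
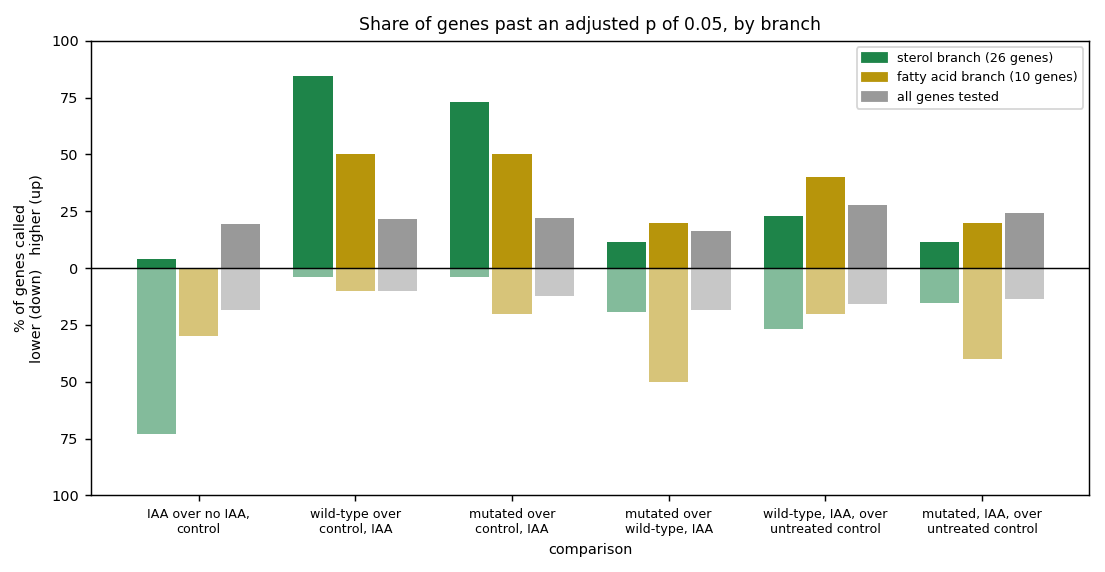
Percent of genes called higher (above 0) and lower (below 0) in each of the 6 comparisons, for the sterol branch, the fatty acid branch and all genes tested. Of the sterol genes, 19 of 26 are called lower with IAA and 22 and 19 higher with wild-type and mutated CTCF, against 18.4%, 21.5% and 22.0% of all genes.

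Levels can be set against each other only per length, and whether the authors counted exons or whole genes is not given in the sources used here. Per kilobase of gene (GENCODE M21, GRCm38), the untreated level was highest at Scd2 (511 normalized reads), Insig1 (413), Msmo1 (401) and Hmgcs1 (375). It was lowest at Fdps (8.22, uncertain for the overlap given below), Mvk (9.10) and Scap (10.6). Per kilobase of exon, Elovl6 led with 3244 and Fdps was again lowest with 16.4. All 36 are protein-coding. Scap lies on chromosome 9 (110333288 to 110384950, plus strand) in 51663 bases and Hmgcs1 on chromosome 13 (119690379 to 119708260, plus strand). Fasn (120805846 to 120824547), Acaca (84129672 to 84401651) and Acly (100476353 to 100528000) lie apart on chromosome 11. Scd1 and Scd2 lie close together on chromosome 19 (44394455 to 44407879 and 44293674 to 44306864), as do Fads1 (10182888 to 10196877) and Fads2 (10062765 to 10101746) on the same chromosome. Within each pair the calls were unlike, since Scd2 and Fads2 fell with IAA while Scd1 and Fads1 did not pass, a gap that was not tested.

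Some levels are uncertain because reads could belong elsewhere. Stretches of at least 100 bases with at least 95% identity elsewhere in the genome, repeats included, covered 67.5% of the exonic bases of Idi1, 63.6% of Insig1, 53.1% of Acat2, 44.3% of Me1, 43.2% of Acaca, 36.7% of Elovl6, 33.1% of Fdft1 and 19.6% of Fdps. How such reads were counted is not given in the sources used here. Hmgcs1, Mvd, Npc1, Acss2 and others overlap genes on the opposite strand that are also in the table, Mvd lying wholly inside Gm20388. The libraries keep strand, but whether the counting used it is not given, so reads of such pairs may not be separable. Overlaps on the same strand cannot be resolved by strand at all. Fdps shares 7512 bases, 1124 of them exonic, with the protein-coding Gm43738, which is not in the table. Tm7sf2 shares 532 bases, all exonic, with Vps51, which is in the table.

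Other genes of lipid metabolism, in 6 lists grouped by function, were counted in the same fit, and the genes named from them were chosen after their values were seen. In the isoprenoid branch, 2 of 12 rose and 3 fell with IAA, near the shares over all genes tested (19.4% and 18.4%). Fnta, a farnesyltransferase subunit, fell (log2 fold change -0.46, SE 0.074, adjusted p = 3.3e-06). Pdss1 (0.26, adjusted p = 3.2e-07) and Rabggtb (0.23, adjusted p = 7.2e-06) rose. Of 9 tested genes of SREBP processing and sterol-induced degradation, 2 rose, also near 19.4%. Mbtps1, the protease that first cuts SREBP, was 1 of them (0.13, adjusted p = 0.015). Of 13 tested genes of sterol uptake, storage and LXR action, 0 rose and 4 fell, among them the sterol exporter Abcg1 (log2 fold change -0.46, SE 0.074, adjusted p = 3.0e-06) and the lipoprotein receptor Vldlr (-0.44, adjusted p = 0.020).

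Of 18 tested genes of fatty acid supply, elongation and activation, 2 rose and 8 fell with IAA, beside 19.4% and 18.4% of all genes tested. Elovl2, an elongase of polyunsaturated fatty acids, fell most (log2 fold change -0.92, SE 0.11, adjusted p = 2.9e-09). Those that rose were Scd3 (0.69, adjusted p = 0.0067) and Acacb (0.46, adjusted p = 3.8e-05). In glycerolipid synthesis 3 of 14 rose and 3 fell, near these shares. Lpin1, a phosphatidate phosphatase, fell (log2 fold change -0.60, SE 0.043, adjusted p = 7.6e-15). Pcyt1a (0.24, adjusted p = 0.0022), Lpin2 (0.21, adjusted p = 0.0014) and Chka (0.12, adjusted p = 0.0035) rose. In fatty acid oxidation 4 of 20 rose and 3 fell, near them as well. Cpt1a, the carnitine transferase that gates entry into mitochondria, rose (log2 fold change 0.30, SE 0.037, adjusted p = 1.3e-08). Cpt2 (-0.46, adjusted p = 7.0e-04), Cpt1c (-0.43, adjusted p = 0.0063) and Etfa (-0.13, adjusted p = 0.018) fell. With wild-type CTCF over the control with IAA, 7 of the 12, 2 of the 9, 4 of the 13, 8 of the 18, 6 of the 14 and 3 of the 20 genes of these lists, in the order given, were higher, beside 21.5% of all genes tested. Of the 6 lists, glycerolipid synthesis, with 3, and fatty acid oxidation, with 1, had genes that were lower, beside 10.01% of all. Abcg1 (0.60, adjusted p = 3.4e-08) and the mitochondrial citrate carrier gene Slc25a1 (0.51, adjusted p = 7.7e-06) were among those higher. With mutated CTCF, 6, 4, 4, 6, 4 and 3 of the same numbers were higher, beside 22.0% of all, and 2, 0, 2, 1, 1 and 2 were lower, beside 12.4%. In mutated against wild-type CTCF, 1, 3, 2, 3, 3 and 1 were higher, beside 16.3%, and 3, 1, 5, 4, 1 and 4 lower, beside 18.4%. Abcg1 (-0.37, adjusted p = 9.9e-05) and Slc25a1 (-0.32, adjusted p = 0.0024) were lower with the mutated form, as Abca1 and Fasn were, and Mbtps2, the protease that makes the later cut of SREBP, was higher (0.32, adjusted p = 1.2e-07). No test was run over these lists.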

How the data were processed

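TT-seq was measured in 8 libraries, 2 in each of 4 groups taken from the sample labels. The authors deposited normalized counts (a signal per gene and library). Per the submitters' processing notes, Trim Galore, STAR, featureCounts and DESeq2 were used with mm10, without versions, roles or order. From the values, 100% of entries were within 0.1 of whole multiples of 1 step per library, so they are reads divided by a library factor, and reads were recovered by dividing by that step. Values were tested with limma 3.58.1 (R 4.3.3) on log2(value + 1), 1 coefficient per group over all 8 libraries (4 residual degrees of freedom), with a trend of variance on mean. The 15818 genes averaging 10 or more normalized reads were tested, and Benjamini-Hochberg adjustment ran over all of them within each comparison. Fold changes on this scale understate the change of low genes. Alternatives were other pseudocounts, filters, library scales and spread estimates, the replicate number as a block, edgeR 4.0.16 on recovered reads, and each library left out. edgeR was run only on comparisons without mutated CTCF, because the step of 1 of its libraries, 0.989, lies too near 1 to be told from rounding by the rule used. The rule for genes given in all 8 libraries was a call of 0.5 or more on the log2 scale in either direction and no overlap in any of the first 4 comparisons, which named Mvd, Hsd17b7, Scap, Pmvk, Sqle, Abca1, Fasn and Scd2. The 8-library values of other genes were chosen after theirs were seen. The members and lists were chosen with earlier results of these data known. Positions are from GENCODE M21 on GRCm38, the assembly also called mm10. Columns belonging to other series numbered 0. The values of 1 gene of the other lists are not reported here.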

Additional observations from a re-analysis of the deposited data

How the results depend on the processing

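No call of a gene of either branch changed sign under any alternative run. A call here is 1 gene in 1 comparison, so a gene can hold several. There were 23 with IAA, 29 and 27 with wild-type and mutated CTCF over the control with IAA, and 15 between the 2 forms. Against the untreated control there were 19 with wild-type and 13 with mutated CTCF. The replicate block, a pseudocount of 0.5 or 10 and a minimum mean of 50 or none ended 0 of these calls. Leaving out the mean-variance trend ended 36, median-of-ratios factors 6 (the replicate block with them also 6), edgeR on recovered reads 5, only the 2 groups compared 4 and equal totals 3. The cause was not tested.

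Without the mean-variance trend, genes called over the whole table fell in number to 3946 with IAA, 2379 with wild-type CTCF, 3228 with mutated CTCF, 3263 in mutated against wild-type CTCF and 3869 with mutated CTCF against the untreated control. It also left 2 fatty acid genes called with wild-type CTCF, 5 sterol and 3 fatty acid genes between the 2 forms, and 7 and 4 sterol genes with wild-type and mutated CTCF against the untreated control. With equal totals, the sterol median was -0.41 with IAA, with 7 fatty acid genes called. Against the untreated control it was -0.060 for the wild-type form and -0.092 for the mutated form, with 11 sterol genes called in the latter, and the fatty acid medians were -0.026 and -0.079. With median-of-ratios factors, with or without the replicate block, the sterol median was 0.26 and 0.23 for wild-type and mutated CTCF over the control with IAA, and -0.032 and -0.057 over the untreated control. edgeR gave 0.27 and -0.037 for wild-type CTCF.

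With each library left out in turn, the sterol median ran -0.38 to -0.31 with IAA, 0.26 to 0.34 with wild-type CTCF, -0.10 to 0.026 in mutated against wild-type CTCF (above 0 only without wild-type CTCF replicate 2), -0.013 to 0.085 with wild-type CTCF against the untreated control and -0.051 to 0.038 with mutated CTCF against it. The fatty acid median ran -0.089 to -0.030 with IAA, -0.047 to 0.042 with mutated CTCF against the untreated control, 0.10 to 0.22 with wild-type CTCF, 0.057 to 0.20 with mutated CTCF, -0.12 to 0.012 between the 2 forms and 0.039 to 0.14 with wild-type CTCF against the untreated control. Genes called over the whole table with wild-type CTCF ran 3270 to 4618.

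Deviations of same-numbered replicates from group means were not correlated over genes (-0.022 to 0.028, mean 0.0037). Such a correlation does not see a shift shared by all genes. The median over all genes tested, relative to the untreated control, was higher in replicate 2 than in replicate 1 of each group. For replicates 1 and 2 it was -0.017 and 0.017 in the untreated control and -0.015 and 0.015 in the control with IAA. It was 0.031 and 0.082 with wild-type CTCF and 0.033 and 0.074 with mutated CTCF. The main fit did not pair the libraries, and the replicate block was run as an alternative. With the replicate block, 20 sterol and 4 fatty acid genes were called with IAA, in place of 20 and 3, and 23 and 8 with wild-type CTCF, in place of 23 and 6. Over the whole table, the block gave 6423 genes called with IAA, in place of 5967, and 5532 with wild-type CTCF, in place of 4991. edgeR could be run only without mutated CTCF. Fdps, at 54.2 to 72.7 normalized reads, had an SE of 0.19 with IAA, and Hmgcs1, at 5008 to 7055, one of 0.035. Why Fdps had so few reads was not tested.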
